A study of Xenopus laevis with 6 samples.

Results

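Expression of the L and S homeologs was compared within the control embryos of the series. A homeolog pair was formed from each 2 features of the count tables that shared a name before a final .L or .S. The 44958 features gave 10771 such pairs, and the 8525 pairs (79.1%) whose L and S counts together averaged at least 20 over the 3 control libraries were kept. The remaining 2246 pairs fell below that minimum. The 3 control libraries (replicates 1, 2 and 3) were each made from polyA RNA of a pool of 6 whole *Xenopus laevis* embryos at stage 23, from in vitro fertilization. All had received 40 ng of control morpholino (MO), an antisense oligonucleotide without an intended target, into the animal hemisphere at the 1-cell stage, so that injection itself is shared by every value given here. No embryos without an injection were used, and the labels do not say whether the pools came from separate clutches. The libraries of *neil2* MO-injected embryos were not used.

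*X. laevis* is allotetraploid. Its genome joins the chromosomes of a pair of diploid ancestors, named L (long) and S (short), so many genes exist as an L and an S homeolog that descend from a single ancestral gene. After such a merger copies can be lost, fall silent, diverge in where and when they are used, or stay in parallel use, and the S subgenome is known for having lost more genes. At stage 23, an early tailbud embryo, the neural tube has closed, somites are forming muscle, neural crest is migrating and the epidermis carries secretory and multiciliated cells.

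The libraries held 20655392, 15656709 and 11534725 counts in replicates 1, 2 and 3. A floor of 3 counts, the limit that a count of 0 allows, stood at 0.145, 0.192 and 0.260 CPM (a feature's share of its library's counts, times 1000000), and it covers counting error only. No 2 libraries differed by as little as sampling noise, with chi-square values per feature of 14.9 to 20.9. Of the defining markers listed, 12 of 14 for muscle, 9 of 10 for neural tissue, 6 of 10 for epidermis, 8 of 8 for neural crest and 6 of 8 for endoderm were in the tables used here, and none of these was at 0. Summed marker levels differed between pools, from 4547 to 5631 CPM for muscle, from 1918 to 2779 CPM for endoderm and from 581 to 903 CPM for notochord, and their part in the ratios below was not tested. Single genes dominated some sums. The S copy of *a2m* gave 2088 CPM of the mean endoderm sum of 2305 CPM. The L and S copies of *col2a1* gave 356 and 311 CPM of the mean notochord sum of 762 CPM. Other notochord markers had another order, with both copies of *not* and *t* lowest in replicate 1, *shh* L in replicate 3 and *shh* S in replicate 2. Among markers of adult liver 3 of 8 were at 0, and the list summed to 1.39 to 3.97 CPM. Features named .L took 52.4 to 52.8% of the counts and those named .S 39.0 to 39.8%.

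The L subgenome held more of the names and, within pairs, more of the reads. Besides the pairs, 5982 names were listed with an L copy alone and 1875 with an S copy alone. Of these, 3853 and 1098 were gene symbols. Whether a copy that was not listed was lost, named otherwise or lacked a gene model was not tested. Within the kept pairs the L copies took 54.2, 54.0 and 53.6% of the pair counts in replicates 1, 2 and 3. The ratio of L to S was calculated per library as log2((L + 0.5)/(S + 0.5)) of the counts. Its median over pairs was 0.42, 0.42 and 0.41 in the 3 libraries, a mean of 0.42 ± 0.011 (SD, n = 3) or 1.34-fold in favour of L. All 3 libraries lay on the same side, but an exact two-sided sign-flip permutation test over 3 libraries cannot go below the p = 0.25 that it gave. The L copy was higher in 5204 (61.0%), 5137 (60.3%) and 5154 (60.5%) of the pairs in replicates 1, 2 and 3. L was the higher copy in all 3 libraries in 4636 pairs (54.4%) and S in 2816 (33.0%), while 1073 pairs (12.6%) changed sides.

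**Figure D1:**
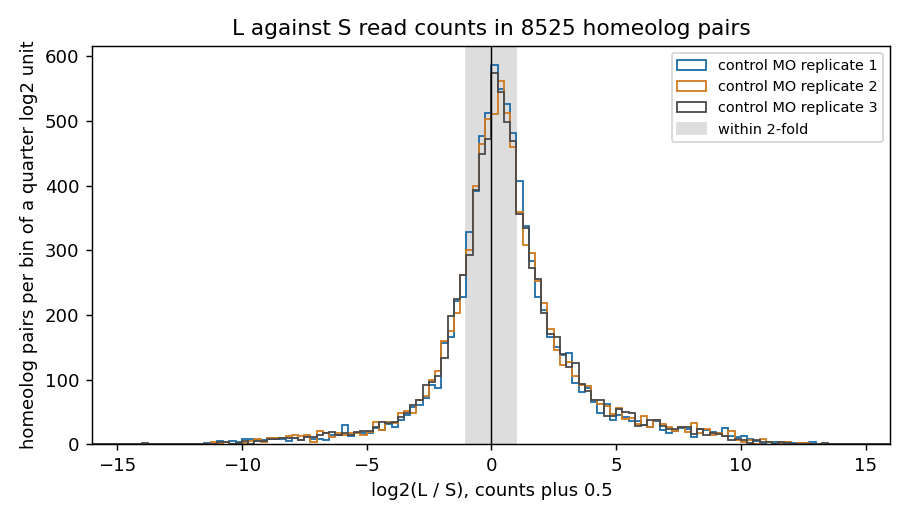
Number of homeolog pairs (y axis, bins of 0.25) by log2 ratio of L to S counts (x axis) in each of the 3 control MO libraries, with the range within 2-fold in grey. The 3 outlines lie on one another, their medians lie at 0.42, 0.42 and 0.41, and the tail of pairs on the L side is the heavier.

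The spread among pairs was far wider than the shift between the subgenomes. The median absolute log2 ratio was 1.18, the central 50% of pairs ran from -0.63 to 1.72 and the central 90% from -3.46 to 5.66, against a median SD of 0.28 over the 3 libraries. In edgeR's quasi-likelihood test with the library as a block, a pair was called when the Benjamini-Hochberg adjusted p was under 0.05 and the fitted ratio at least 2-fold. The L copy was called higher in 3056 of 8525 pairs (35.8%) and the S copy in 1634 (19.2%), so 55.0% of pairs were called and 65.2% of the calls favoured L. When each subgenome was scaled to the same typical level, which moved every log2 ratio by 0.36, 2547 pairs were called for L and 2101 for S, and the share favouring L was 54.8%. Without the requirement of 2-fold, 79.0% of pairs passed the test, 4250 (49.9%) in favour of L and 2487 (29.2%) in favour of S. Counts are per gene model and not per length, and reads that matched both copies equally were not counted, so a ratio joins transcript level with the length of each model and with how much sequence tells the copies apart. These cannot be told apart here.

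Pairs with more reads were more often even. The pairs were divided into 4 bins of equal size by their summed L and S level. In the lowest bin (1.14 to 11.3 CPM) 17.2% were balanced, meaning within 2-fold in each of the 3 libraries. The share was 30.2% in the second bin (up to 34.8 CPM), 40.6% in the third (up to 83.5 CPM) and 49.6% in the highest (83.6 to 13397 CPM). The libraries themselves were less reproducible at low counts, with a median SD of the log2 ratio of 0.56, 0.31, 0.23 and 0.17 from the lowest bin to the highest, and the part of counting error in this order was not tested. The median ratio favoured L in every bin, by 0.65, 0.54, 0.33 and 0.31 on the log2 scale. Copies below 5% of their pair made up 14.4, 13.1, 6.05 and 6.57% of the pairs in the same order.

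A copy was counted as near-silent when it gave less than 5% of the pair's counts in every library. The S copy was near-silent in 594 pairs (6.97%) and the L copy in 260 (3.05%). The limit of 5% already puts these pairs beyond 2-fold, and all 854 also passed the adjusted p. The same order held in each library alone, with 721, 783 and 774 S copies and 315, 343 and 343 L copies below 5% in replicates 1, 2 and 3. Over all kept pairs, near-silent by this limit or not, 390 S copies and 177 L copies had at most 3 counts in every library. No read in any library was found for 164 S copies and 58 L copies.

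The 5 near-silent S copies with the most highly expressed partners were *fcgbp*, *tpt1*, *itln1*, *ahnak* and *gjb1*. *fcgbp* encodes a large mucus-associated protein in mammals. Its L copy stood at 2928, 3742 and 2929 CPM in replicates 1, 2 and 3 and its S copy at 0.29, 1.09 and 0.0867 CPM, a log2 ratio of 13.12 ± 1.38 (SD, n = 3, adjusted p = 1.66e-08). *itln1*, a secreted lectin of the larval epidermis, gave 2269, 1906 and 2172 CPM from L and 4.26, 2.68 and 1.91 CPM from S, a log2 ratio of 9.54 ± 0.54. *gjb1*, a gap junction connexin, gave 1182, 1301 and 1370.2 CPM from L and 0.29, 0.192 and 0.0867 CPM from S, a log2 ratio of 12.58 ± 0.75. A wide gap between the copies in every library follows from the limit of 5% by which these pairs were picked. *ahnak*, a giant scaffold protein at the cell periphery, had 1144, 1552 and 1175 CPM from L and no S read in any library. With counts summed over the libraries, L was at least 6831-fold higher against a floor of 3 counts per library. Each later fold given as at least a value was calculated in the same way, and the bound from a single library can be lower. *tpt1*, the translationally controlled tumour protein, gave 2292, 2086 and 2321 CPM from L and 3.97, 3.64 and 7.28 CPM from S, a log2 ratio of 8.87 ± 0.49.

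Near-silent L copies with highly expressed partners were *eef1a1o*, *a2m*, *prpf8*, *cdh1* and *has1*. *prpf8*, the core protein of the spliceosome, had no L read in any library and 755, 817 and 693 CPM from S, at least 4044-fold more. *eef1a1o*, an elongation factor 1 alpha gene named for its oocyte form, gave 3062, 3762 and 2993 CPM from S against 88.0, 82.0 and 59.8 CPM from L, a log2 ratio of -5.43 ± 0.27 (SD, n = 3, adjusted p = 1.73e-08). *cdh1* encodes E-cadherin, which joins epithelial cells. Its S copy stood at 544, 683 and 721 CPM and its L copy at 6.00, 7.47 and 3.90 CPM, a log2 ratio of -6.84 ± 0.58. *a2m*, a secreted protease inhibitor, gave 1729, 2005 and 2531 CPM from S and 5.62, 7.92 and 12.6 CPM from L, a log2 ratio of -7.96 ± 0.31. *has1*, a hyaluronan synthase, had 409.6, 706 and 709 CPM from S and no L read, so S was at least 3076-fold higher. Here too the gap between the copies in all 3 libraries follows from the limit of 5%.

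**Figure D2:**
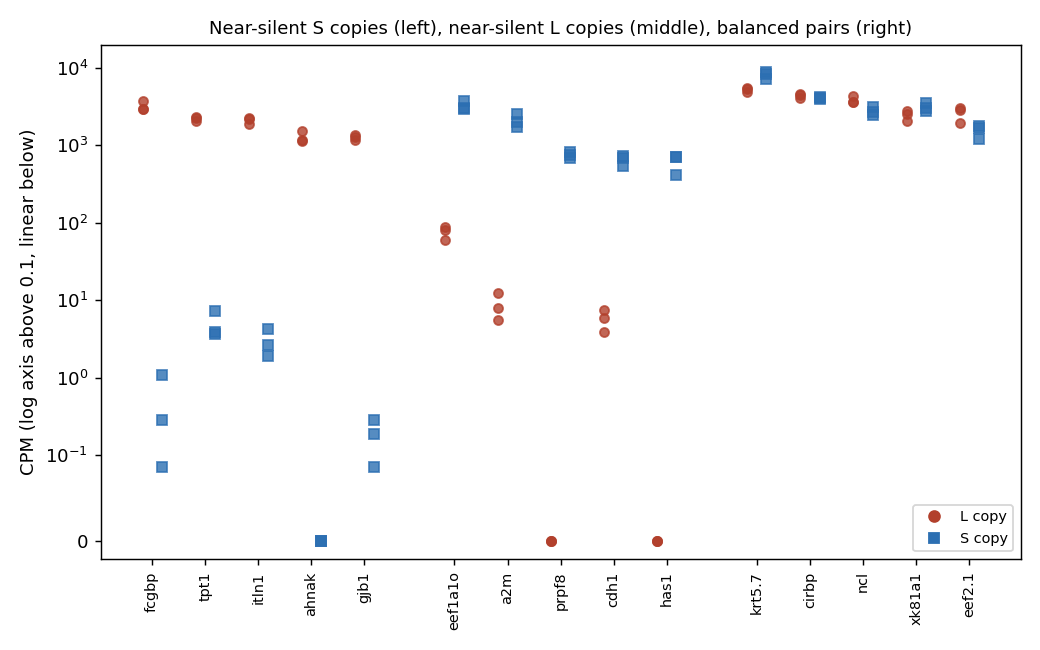
CPM (y axis, logarithmic above 0.1 and linear below) of the L copy (circles) and S copy (squares) in each of the 3 control MO libraries, for the 5 near-silent S copies and 5 near-silent L copies with the highest partners and the 5 most highly expressed balanced pairs. *ahnak* S, *prpf8* L and *has1* L lie at 0 in every library, while the copies of *cirbp* lie between 3970 and 4623 CPM.

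Where both copies had at least 10 counts in every library, ratios were still large. Beside *itln1* and *tpt1*, the pairs most in favour of L were *darmin*, *c3* and *sept7*. *darmin* encodes a peptidase of the embryonic endoderm and gave 443, 452 and 945 CPM from L and 0.823, 0.83 and 3.73 CPM from S, a log2 ratio of 8.68 ± 0.61. Both copies of *darmin* were highest in replicate 3, the library with the highest summed endoderm markers. *c3*, the central complement component, gave 1085, 919 and 985 CPM from L and 3.53, 3.07 and 2.34 CPM from S, a log2 ratio of 8.39 ± 0.27. *sept7*, a septin of the cytoskeleton, had 340.0, 349.6 and 331 CPM from L and 1.45, 1.28 and 1.21 CPM from S, a log2 ratio of 7.98 ± 0.12, with the smallest SD of these pairs. In favour of S, beside *a2m* and *cdh1*, stood *nifk*, *tpr* and *ctbs*. *nifk*, a nucleolar protein, gave 0.581, 1.02 and 0.867 CPM from L and 275, 283 and 349 CPM from S, a log2 ratio of -8.49 ± 0.39. *tpr*, a nuclear pore protein, and *ctbs*, a lysosomal glycosidase, had log2 ratios of -7.41 ± 0.48 and -6.69 ± 0.35. All of these pairs were taken from the called ones, and their adjusted p was at most 4.28e-08.

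Near-silent copies were less often paired in a later annotation. In the gene table of RefSeq for assembly Xenopus_laevis_v10.1, 7315 of the 8525 pairs matched by name with at least 1 copy, and 6046 with both. Of the 465 matched pairs with a near-silent S copy, 229 (49.2%) had the L name alone and 8 the S name alone. Of the 200 matched pairs with a near-silent L copy, 97 (48.5%) had the S name alone and 5 the L name alone. Of the balanced pairs that matched, 89.3% had both names. The counts were made on the older 9.2 genome and its gene models, and the part of those models in the near-silent calls was not tested. For near-silent S copies, pairs were placed by their L copies along the L chromosomes, in the gene order of the same table. After a pair with a near-silent S copy the next placed pair was also near-silent for S in 41 of 454 cases (9.03%). Of all pairs so placed, 6.71% were near-silent for S. For near-silent L copies, with pairs placed by their S copies along the S chromosomes, the figures were 14 of 193 (7.25%) and 2.96%. The positions of the near-silent copies themselves were not used.

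Balanced pairs numbered 2934 (34.4%), and some of the most abundant transcripts of the embryo were among them. *krt5.7*, an epidermal keratin, gave 5508, 5406 and 4836 CPM from L and 8823, 8342 and 7277 CPM from S. Its S copy was higher in every library, by less than 2-fold, with a log2 ratio of -0.63 ± 0.045 (SD, n = 3, adjusted p = 5.54e-05). *cirbp*, a cold-inducible RNA-binding protein, gave 4097, 4503 and 4623 CPM from L and 4102, 3970.4 and 4247 CPM from S, and the ranges of its copies overlapped. The log2 ratio of *cirbp* was 0.10 ± 0.093 (adjusted p = 0.255). *ncl*, the nucleolar protein nucleolin, stood at 3609, 3596 and 4307 CPM from L and 2475, 2705 and 3154 CPM from S, a log2 ratio of 0.47 ± 0.069. *xk81a1*, a larval keratin, and *eef2.1*, an elongation factor 2 gene, had log2 ratios of -0.34 ± 0.19 and 0.75 ± 0.045. Balanced therefore means within 2-fold, and not that the copies were equal. The embryos were pooled whole, so an even ratio does not say whether both copies were used in the same cells. The 4737 other pairs were neither balanced nor near-silent.

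Gene classes were described with 37 lists of gene names, which held 1550 of the kept pairs and which overlap in places. The calls of each list stand beside 35.8% called for L and 19.2% called for S over all kept pairs. Of the 37 lists, 25 had a balanced share above the 34.4% of all pairs, 28 held more L than S calls, 7 more S than L calls and 2 equal numbers. With the subgenomes scaled to the same typical level these numbers were 17, 16 and 4. The order of L and S calls changed in 13 lists, so calls counted below are given on that scale too. Some of the 13 have no count below. Translation initiation factors had 10 calls for L and 5 for S (7 and 7 with scaled subgenomes). For bHLH genes the calls were 9 and 8 (8 and 10), and for T-box, Gata and Snail genes 5 and 2 (2 and 2). The Notch and Hedgehog pathways had 4 and 4 (4 and 6), and cilia genes 7 and 6 (6 and 10). The lists above 34.4% comprised 9 of 13 lists of complexes and nuclear machinery, 10 of 11 of developmental regulators, 5 of 9 of tissue genes and 1 of 4 of metabolism, transport and chaperones. Together 51.7% of the 460 pairs of the first class, 48.2% of the 461 developmental pairs, 30.4% of the 382 tissue pairs and 26.6% of the 259 metabolic pairs were balanced. Median summed levels of these classes were 97.2, 30.9, 25.03 and 43.3 CPM in the same order. The developmental class took in the 86 pairs named znf, a family defined by name, of which 41.9% were balanced. Most developmental names also had both copies in the tables (84.6%, against 66.2% of all symbols).

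**Figure D3:**
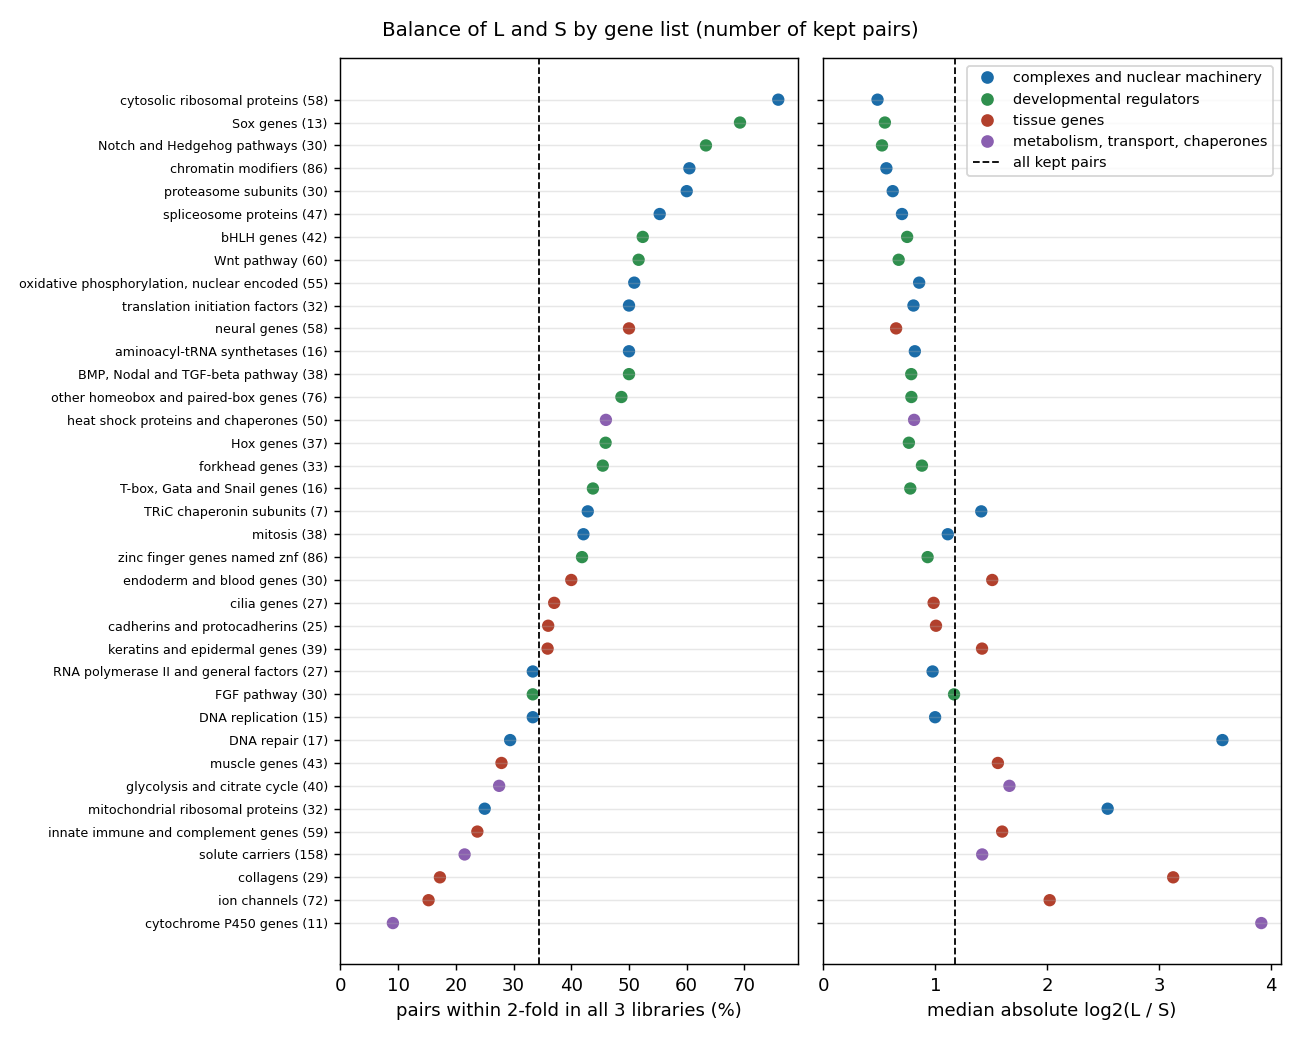
Share of pairs within 2-fold in all 3 libraries (left, %) and median absolute log2 ratio of L to S (right) for each of the 37 lists, with the number of kept pairs in brackets, the class in colour and the value of all pairs as a dashed line. Cytosolic ribosomal proteins lie highest at 75.9% and cytochrome P450 genes lowest at 9.09%, against 34.4% of all pairs.

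Cytosolic ribosomal proteins had the highest balanced share of the 37 lists. Of 64 names 58 had both copies, all 58 pairs lay in the highest of the 4 bins of level, and 44 (75.9%) were balanced, against 49.6% of all pairs in that bin. The L copy was called higher in 9 and the S copy in 3 (6 and 7 with scaled subgenomes), and the median log2 ratio was 0.18. *rpl3*, the most highly expressed, was not among the balanced ones, with 1525, 1369 and 1180.3 CPM from L and 433, 478 and 338 CPM from S and a log2 ratio of 1.71 ± 0.17. The S copies of 2 pairs were near-silent. *rpl37a* had 195, 147 and 139 CPM from L and no S read, at least 881-fold more, and *rpl37* had 192, 136 and 143 CPM from L and 0, 0.0639 and 0.0867 CPM from S. In favour of S, *rps21* stood at 8.91, 6.51 and 8.24 CPM from L and 135, 91.0 and 118 CPM from S (log2 ratio -3.85 ± 0.06), *rps19* at a log2 ratio of -3.69 ± 0.16 and *rpl12* at -1.97 ± 0.14. *rplp0*, of the ribosomal stalk, favoured L by 1.92 ± 0.32.

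The mitochondrial ribosome is made of other nuclear-encoded proteins, and fewer of its names had both copies. Of 76 names 32 had both copies, with 31 listed as L alone and 13 as S alone. Among the 32 pairs 8 were called for L and 14 for S (8 and 15 with scaled subgenomes), 8 (25%) were balanced, and 4 S and 4 L copies were near-silent. The median absolute log2 ratio was 2.54, against 0.48 for the cytosolic ribosome. No pair of this list lay in the highest bin of level, and its median summed level was 17.8 CPM, within the bin of which 30.2% was balanced. *mrpl39* had 16.9, 16.9 and 16.8 CPM from L and no S read, at least 89.9-fold more. *mrpl17* had 37.8, 29.4 and 41.3 CPM from S and no L read, at least 191-fold more. *mrps18b*, the most highly expressed, was balanced at 34.3, 34.7 and 30.0 CPM from L and 30.3, 30.0 and 24.5 CPM from S.

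**Figure D4:**
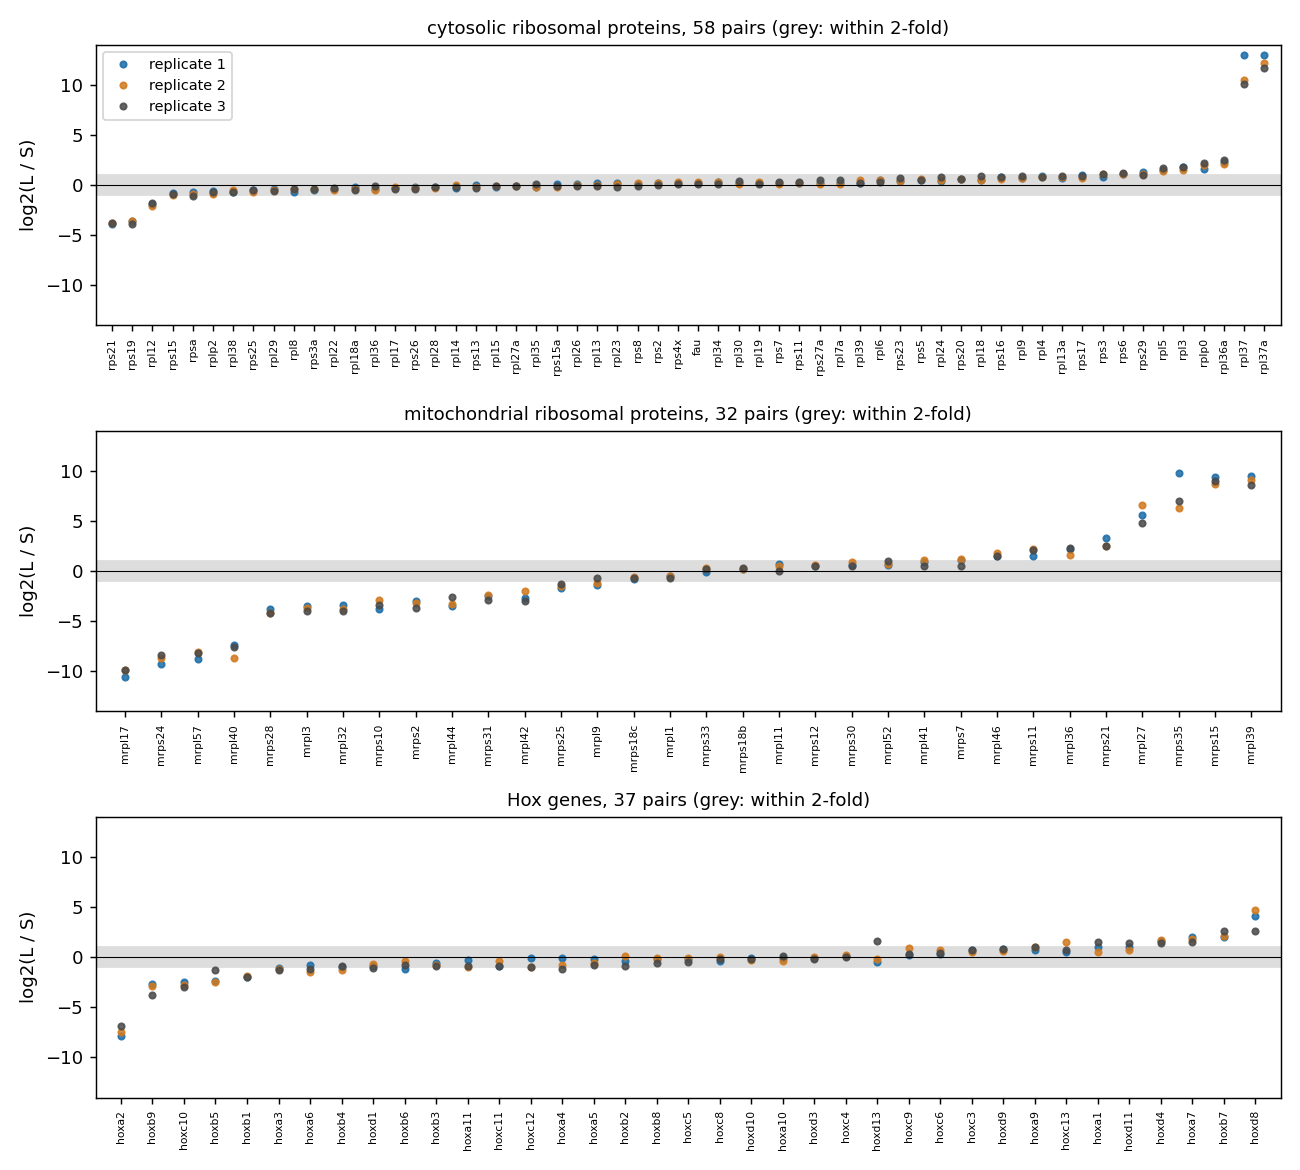
Log2 ratio of L to S counts (y axis) for every kept pair of the cytosolic ribosomal proteins (58), the mitochondrial ribosomal proteins (32) and the Hox genes (37), ordered by mean ratio, with 1 point per control MO library and the range within 2-fold in grey. Most cytosolic pairs lie in the grey band (44 of 58), whereas 8 of 32 mitochondrial pairs do and 17 of 37 Hox pairs.

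Other protein complexes lay between these in balanced share. Of 30 proteasome pairs 18 (60.0%) were balanced, with 6 calls for L and 2 for S (5 and 5 with scaled subgenomes) and log2 ratios from -1.53 (*psma5*) to 2.90 (*psma3*). *psmc5*, an ATPase of the regulatory particle, gave 120.0, 135 and 120.1 CPM from L and 121, 111 and 132 CPM from S, overlapping in range. The list of the chaperonin TRiC, which folds actin and tubulin, held 7 of its subunits, all with both copies, and had 3 calls for L and 1 for S (3 and 1 with scaled subgenomes). *cct8* gave 210.4, 190.0 and 289 CPM from L and 29.6, 22.3 and 25.6 CPM from S (log2 ratio 3.14 ± 0.33), while *cct4* gave 21.7, 15.5 and 33.9 CPM from L and 192, 166 and 188 CPM from S (-3.01 ± 0.49). *tcp1* and *cct2* favoured L by 1.41 ± 0.29 and 1.47 ± 0.11 on the log2 scale, and *cct5*, *cct6a* and *cct7* were balanced. All 7 TRiC pairs lay in the highest bin of level, and 3 (42.9%) were balanced, against 49.6% of all pairs there. Of 55 pairs of oxidative phosphorylation 28 (50.9%) were balanced, with 13 calls in each direction (11 for L and 15 for S with scaled subgenomes). *atp5b*, the catalytic beta subunit of ATP synthase, favoured S with 98.0, 81.0 and 84.4 CPM from L and 498, 372 and 419.5 CPM from S (-2.29 ± 0.077).

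Spliceosome proteins were a list with more calls for S (12, or 15 with scaled subgenomes) than for L (6, or 5), of 47 pairs of which 26 (55.3%) were balanced. In the highest bin of level 20 of its 38 pairs (52.6%) were balanced, near the 49.6% of all pairs there. *sf3a1*, of the U2 particle, was called for L at 325, 443 and 501 CPM from L and 6.39, 4.73 and 3.55 CPM from S (6.44 ± 0.74), and *srsf2*, a splicing factor, had a log2 ratio of -0.09 ± 0.25. Translation initiation factors were balanced in 16 of 32 pairs (50%). *eif3a*, a scaffold subunit of eIF3, gave 360.1, 389 and 331 CPM from L and 739, 818 and 845 CPM from S (-1.15 ± 0.17), *eif4h* stood at -3.73 ± 0.13 and *eif2b4*, of the exchange factor for eIF2, at 8.49 ± 0.55. Among 16 aminoacyl-tRNA synthetases 4 were called for L and 2 for S (4 and 6 with scaled subgenomes), with *cars2* at 4.26, 3.83 and 4.42 CPM from L and no S read, and *qars* at -1.63 ± 0.093.

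Chromatin modifiers were balanced in 52 of 86 pairs (60.5%), with 18 calls for L and 5 for S (11 and 10 with scaled subgenomes). *chd4*, the remodelling ATPase of the NuRD complex and the most highly expressed of them, was called for L with 666, 679 and 780.2 CPM from L and 70.6, 70.2 and 85.8 CPM from S (log2 ratio 3.23 ± 0.045). *ezh2*, the methyltransferase of Polycomb complex PRC2, favoured L by 2.67 ± 0.37. The DNA methyltransferase *dnmt1* was balanced at -0.43. Also balanced were *tet2* and *tet3*, of the TET dioxygenases that oxidize methylated cytosine, at -0.22 and -0.35. Of 38 mitotic pairs 16 were called for L and 5 for S (13 and 6 with scaled subgenomes). *smc4* and *smc2*, the core of condensin, both favoured L, with 304, 312 and 314 CPM from L and 0.242, 0.511 and 0.0867 CPM from S for *smc4* and a log2 ratio of 5.57 ± 0.39 for *smc2*. *smc1a* of cohesin was even (-0.02 ± 0.14), and so were the kinases *plk1* and *cdk1* at -0.11 and 0.35, whereas *ndc80* of the kinetochore favoured S at a log2 ratio of -4.10 ± 0.34. Among 15 replication pairs 8 were called for L and none for S, but 6 and 2 with scaled subgenomes. *mcm7* of the replicative helicase stood at 0.96 ± 0.19 and its partner *mcm2* at 1.66 ± 0.13. RNA polymerase II and its general factors had 5 calls for L and 8 for S among 27 pairs (5 and 10 with scaled subgenomes), led by *gtf2e2* (8.88 ± 1.45) and *taf4b* (-5.89 ± 1.67).

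DNA repair, the process the study addresses, was the list with fewest pairs for its names. Of 84 repair names 17 (20.2%) had both copies, 55 were listed as L alone and 12 as S alone. Among the 17 pairs 8 were called for L and 4 for S (8 and 4 with scaled subgenomes), 5 were balanced, and 6 S copies and 1 L copy were near-silent. *neil3*, a DNA glycosylase of the Neil family, had 9.83, 10.6 and 6.16 CPM from L and no S read, at least 48.9-fold more. *apex1*, the endonuclease that cuts abasic sites, used both copies, with 125, 104 and 115 CPM from L and 82.4, 74.0 and 80.5 CPM from S, L higher in each library and the log2 ratio 0.54 ± 0.054 (adjusted p = 0.000954). *xrcc1*, a scaffold of single-strand break repair, gave 70.7, 82.2 and 74.6 CPM from L and 26.3, 30.6 and 27.9 CPM from S (1.42 ± 0.0049). *bard1*, the partner of Brca1, and *aptx*, which removes blocked DNA ends, had no S read, with 36.7, 41.6 and 29.6 and 29.2, 29.6 and 24.3 CPM from L. *parp2*, a poly(ADP-ribose) polymerase, favoured S at 0.871, 0.766 and 2.17 CPM from L and 56.7, 57.8 and 33.9 CPM from S (-5.37 ± 1.24). *rad50*, of the complex that binds double-strand breaks, and *ercc6*, of transcription-coupled repair, favoured L by 7.07 ± 0.97 and 9.53 ± 1.25.

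Hox genes, which set position along the body axis, kept both copies in all 38 names, and 37 pairs passed the count minimum. Of these 17 (45.9%) were balanced, 6 were called for L and 8 for S (4 and 13 with scaled subgenomes), and the median log2 ratio was -0.20. Levels were low, with no pair in the highest bin. The *hoxc* cluster had 8 of 10 pairs balanced and 1 call, for S (*hoxc10*, -2.71 ± 0.26), the *hoxb* cluster had 4 of 9 called for S and 1 for L, and the *hoxd* cluster had 3 of 8 called for L and none for S. The *hoxa* cluster had 2 of 10 called for L and 3 for S. With scaled subgenomes the calls for L and S were 1 and 4 in *hoxa*, 1 and 6 in *hoxb*, 0 and 2 in *hoxc* and 2 and 1 in *hoxd*. Within a cluster both directions occurred. *hoxb9* gave 7.17, 7.35 and 3.47 CPM from L and 47.1, 51.9 and 46.5 CPM from S (-3.08 ± 0.56), and *hoxb7* of the same cluster gave 26.0, 32.8 and 33.0 CPM from L and 6.39, 7.73 and 5.29 CPM from S (2.25 ± 0.34). *hoxa2*, which patterns the hindbrain and second pharyngeal arch, had no L read and 5.42, 5.49 and 4.85 CPM from S, at least 28.2-fold more. *hoxd8* was the pair most in favour of L (3.81 ± 1.08), at up to 4.65 CPM, and *hoxb3*, the most highly expressed, stood at -0.73 ± 0.13.

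The lists of other transcription factor families each had a balanced share above that of all pairs, from 41.9% for genes named znf to 69.2% for Sox genes. Of 13 Sox pairs 9 were balanced. *sox10*, of the neural crest, gave 47.7, 62.2 and 66.8 CPM from L and 47.1, 69.8 and 60.3 CPM from S, overlapping in range (adjusted p = 0.994). *sox3* and *sox1*, of the neural plate, and *sox9* stood at -0.38, 0.03 and -0.55. *sox21* was called for L (2.15 ± 0.24) and *sox5* for S (-1.76 ± 0.13). Other crest regulators divided, with *twist1* balanced (-0.43 ± 0.057), *snai2* called for L at 32.1, 41.8 and 53.0 CPM from L and 8.81, 10.9 and 9.97 CPM from S (2.07 ± 0.29), and *foxd3* called for L (1.37 ± 0.29). Forkhead genes had 12 calls for L (36.4%) and 2 for S (6.06%) of 33 pairs, against 35.8 and 19.2% of all pairs, or 11 and 5 with scaled subgenomes. *foxh1*, the partner of Smad2 in Nodal signalling, gave 11.5, 17.5 and 23.4 CPM from L and 0, 0 and 0.0867 CPM from S. *foxk2* was balanced, with L higher in each library (0.48 ± 0.062). Of 42 bHLH pairs 22 (52.4%) were balanced. *myod1*, the muscle determination factor, favoured S at 52.0, 73.6 and 71.3 CPM from L and 137, 212 and 189 CPM from S (-1.45 ± 0.072), *olig2* stood at -3.09 ± 0.23 and *id3* at -0.12 ± 0.18. Among 76 other homeobox and paired-box pairs 21 were called for L and 9 for S (17 and 12 with scaled subgenomes), with *meis1* at 59.5, 64.0 and 49.3 CPM from L and 0.581, 0.83 and 2.60 CPM from S and *pbx3* at -5.81 ± 0.67. In the T-box, Gata and Snail list *gata6* favoured S (-1.49 ± 0.31) and *gata2* lay at 0.73 ± 0.27. Of the 86 pairs named znf, 20 were called for L and 22 for S (15 and 27 with scaled subgenomes), with *znf423* at 51.6, 72.3 and 49.4 CPM from L and no S read and *znf383* at -8.94 ± 0.77.

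In the Wnt pathway 31 of 60 pairs (51.7%) were balanced, 14 called for L and 10 for S (13 and 12 with scaled subgenomes). Beta-catenin (*ctnnb1*) gave 551, 626 and 501 CPM from L and 653, 701 and 666 CPM from S (-0.27 ± 0.13). The ligand *wnt3a* favoured L at 7.07, 13.2 and 9.02 CPM from L and 2.13, 2.87 and 1.73 CPM from S (2.08 ± 0.33) and the ligand *wnt1* was balanced (-0.18 ± 0.36). *notum*, a secreted inhibitor of Wnt, favoured S (-3.10 ± 0.49), as did the secreted antagonist *sfrp2* (-1.63 ± 0.034), and *dvl1*, which relays the Wnt signal, favoured L (4.64 ± 0.39). In the Notch and Hedgehog pathways 19 of 30 pairs (63.3%) were balanced. The receptors *notch1* and *notch2*, the ligand *dll1*, the nuclear effector *rbpj* and the Hedgehog effector *gli3* lay at 0.34, -0.03, 0.13, 0.25 and 0.45. The ligand *shh* was called for L at 31.3, 28.4 and 26.9 CPM from L and 5.71, 3.32 and 5.90 CPM from S (2.57 ± 0.46), and so was its binding inhibitor *hhip* (4.39 ± 1.04). *nrarp*, a feedback inhibitor of Notch, was called for S at 14.9, 15.3 and 16.0 CPM from L and 162, 166 and 174 CPM from S, with nearly the same ratio in each library (-3.44 ± 0.002).

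In the BMP, Nodal and TGF-beta pathway 19 of 38 pairs (50%) were balanced. The ligand *bmp4* and the BMP antagonist *nog* were among them at 0.67 and 0.45, and the ligand *nodal1* was called for L (2.13 ± 0.30). *smad4.1*, of the shared effector Smad4, gave 90.0, 95.7 and 113 CPM from L and 61.9, 51.9 and 68.8 CPM from S (0.71 ± 0.17), whereas the lower *smad4.2* was called for S (-3.58 ± 0.16). The inhibitor *smad6.2* had 17.8, 16.3 and 12.7 CPM from L and 0, 0.0639 and 0 CPM from S. In the FGF pathway 12 of 30 pairs (40%) were called for L and 4 (13.3%) for S, against 35.8 and 19.2% of all pairs. With scaled subgenomes the FGF calls were 9 and 4. Balanced FGF pairs numbered 10 (33.3%), near the 34.4% of all pairs. The ligands *fgf8* and *fgf16* were called for L (2.24 ± 0.24 and 5.38 ± 0.56) and *fgf14*, a member of the family that acts inside the cell, for S (-5.01 ± 0.65). The effector *etv1* was balanced (-0.29 ± 0.10).

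Of 43 muscle pairs 12 (27.9%) were balanced, although 27 lay in the highest bin of level, where 49.6% of all pairs were. Calls were 14 for L and 13 for S (12 and 17 with scaled subgenomes), and 6 S copies were near-silent. Thin and thick filament genes *actc1*, *mylpf*, *myl1* and *tnni2* were balanced, with 1181, 1071 and 1003 CPM from L and 918, 858 and 759 CPM from S for *actc1*. *ckm*, the muscle creatine kinase, gave 937, 730.4 and 767 CPM from L and 0.726, 0.511 and 0.433 CPM from S (10.44 ± 0.19). The long sarcomere proteins *neb* and *myom2*, the calcium release channel *ryr1* and the methyltransferase *smyd1* were all called for L, at 5.79 ± 0.21, 6.41 ± 0.36, 8.50 ± 0.90 and 10.26 ± 2.06. *ryr1* stood at 149, 171 and 92.9 CPM from L and 0.194, 0.447 and 0.433 CPM from S. *myl4*, a light chain of embryonic and atrial muscle in mammals, favoured S at 0.581, 0.894 and 0.694 CPM from L and 35.6, 15.1 and 19.1 CPM from S (-4.87 ± 0.94).

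Neural genes were the most even tissue list, at 29 of 58 pairs (50%). They had 21 calls for L (36.2%) and 2 for S (3.45%), against 35.8 and 19.2% of all pairs, and 19 and 2 calls with scaled subgenomes. *ngfr*, a neurotrophin receptor of crest and neurons, gave 149, 190.1 and 175 CPM from L and 219, 270.3 and 263 CPM from S (-0.55 ± 0.04), *elavl3*, an RNA-binding protein of neurons, lay at 0.31 ± 0.078, and *efna4*, an ephrin, was called for L (4.35 ± 0.25). Keratins and epidermal genes had 13 calls for L (33.3%) and 10 for S (25.6%) of 39 pairs, or 12 and 11 with scaled subgenomes. Of the 39 pairs 14 (35.9%) were balanced, near the 34.4% of all pairs. However, 29 of them lay in the highest bin of level. Of those 29 pairs 13 (44.8%) were balanced, against 49.6% of all pairs in that bin. *krt222* was the pair of that list most in favour of S (-4.01 ± 0.79). Of 99 cilia names 27 had both copies, and 10 of these (37.0%) were balanced. *dnali1*, an inner dynein arm protein, had 48.9, 52.8 and 39.0 CPM from S and no L read, at least 254-fold more. *cfap58* gave 23.9, 22.4 and 17.1 CPM from L and 0, 0.0639 and 0 CPM from S, and *tekt2*, a tektin of the axoneme, favoured S (-2.53 ± 0.16). In the endoderm and blood list 10 of 30 pairs (33.3%) were called for L and 7 (23.3%) for S, near the shares of all pairs. With scaled subgenomes these calls were 9 and 9. *hbz*, an embryonic alpha-type globin, gave 8.71, 11.3 and 10.6 CPM from L and 0.0968, 0 and 0 CPM from S.

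Of 29 collagen pairs 5 (17.2%) were balanced, 16 were called for L and 7 for S (13 and 8 with scaled subgenomes), and the median absolute log2 ratio was 3.12. Chains that assemble with each other did not always favour the same copy. *col1a1* favoured S at 0.533, 0.511 and 0.173 CPM from L and 20, 19.6 and 4.85 CPM from S (-4.95 ± 0.39), and its partner *col1a2* favoured L (1.31 ± 0.11), though it was not called with scaled subgenomes. *col6a3* was called for S (-7.66 ± 2.61) and *col6a1* and *col6a2* for L (5.24 ± 0.39 and 2.85 ± 0.80). The basement membrane chains *col4a1*, *col4a2*, *col4a5* and *col4a6* were all called for L, *col4a6* at 135, 119 and 101 CPM from L and 1.60, 1.66 and 2.08 CPM from S (6.03 ± 0.41). *col2a1*, the collagen of notochord and cartilage and the most highly expressed, was even at 409, 395 and 265 CPM from L and 411, 300.0 and 222 CPM from S, both lower in replicate 3. The summed notochord markers were also lowest in that library, but *col2a1* itself made up most of that sum and so was not measured apart from it. *col11a2p1* had 29.9, 19.5 and 16.0 CPM from S and 0, 0.0639 and 0 CPM from L.

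Of 72 ion channel pairs 11 (15.3%) were balanced (18 without replicate 3), and 34 were called for L (47.2%) and 14 for S (19.4%), or 31 and 17 with scaled subgenomes. Only 7 lay in the highest bin of level. The median summed level of the list was 6.67 CPM, within the lowest bin, of which 17.2% was balanced. The inward rectifier *kcnj2* was called for L (2.46 ± 0.21), the ATP-gated channel *p2rx1* had 9.2, 9.33 and 9.54 CPM from L and no S read, and the potassium channel *kcnc4* was called for S (-6.57 ± 0.93). Among 59 innate immune and complement pairs 24 (40.7%) were called for L and 16 (27.1%) for S, or 22 and 18 with scaled subgenomes. *rela*, a subunit of NF-kB, gave 61.9, 63.2 and 71.7 CPM from L and 0.145, 0 and 0.0867 CPM from S (9.52 ± 1.27), and *tmem173*, which encodes STING, had 2.57, 3.51 and 2.95 CPM from S and no L read. Of 25 cadherin and protocadherin pairs 8 (32%) were called for L and 5 (20%), with *cdh1* among them, for S. These shares were near the 35.8 and 19.2% of all pairs. With scaled subgenomes the cadherin calls were 4 and 8. The pair of that list most in favour of L was *cdh22* (4.72 ± 1.28).

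Of 40 pairs of glycolysis and the citrate cycle 14 were called for L and 13 for S (11 and 14 with scaled subgenomes), and 11 (27.5%) were balanced. In the highest bin of level 5 of its 18 pairs (27.8%) were balanced, against 49.6% of all pairs there. Along glycolysis, *hk1* favoured L at 147, 151 and 128 CPM from L and 19.7, 21.6 and 11.9 CPM from S (3.04 ± 0.33). Phosphofructokinase *pfkm* favoured S at 4.55, 4.15 and 2.43 CPM from L and 112, 112 and 89.6 CPM from S (-4.85 ± 0.30). Another gene of the same enzyme, *pfkp*, favoured L (6.81 ± 0.35). The aldolase gene *aldoa* was balanced (0.10 ± 0.24). *gapdh*, often taken as a reference gene, gave 26.6, 22.5 and 26.4 CPM from L and 413, 334 and 327 CPM from S (-3.83 ± 0.17). *eno1* and *pkm* favoured L (2.95 ± 0.11 and 1.04 ± 0.29, *pkm* not called with scaled subgenomes), and the lactate dehydrogenases *ldha* and *ldhb* favoured S (-3.46 ± 0.16 and -4.28 ± 0.44). Citrate synthase (*cs*) was balanced at 525, 456 and 487 CPM from L and 407, 384 and 440.5 CPM from S, with L higher in each library (0.25 ± 0.11).

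Solute carriers had 62 calls for L (39.2%) and 31 for S (19.6%) of 158 pairs, near the 35.8 and 19.2% of all pairs, and 52 and 42 with scaled subgenomes. Of the 158 pairs 34 (21.5%) were balanced. *slc25a5*, the mitochondrial ADP/ATP carrier, gave 1213, 1328 and 1147 CPM from L and 282, 233 and 228 CPM from S (2.31 ± 0.20). *slc37a4*, a glucose 6-phosphate transporter of the endoplasmic reticulum, had 160.5, 183 and 179 CPM from L and 0, 0.0639 and 0 CPM from S, and *slc35a4* had 23.5, 18.8 and 22.4 CPM from S and no L read. Cytochrome P450 genes were the least balanced list, at 1 of 11 pairs (2 without replicate 2). Their median summed level was 8.62 CPM, within the lowest bin of level, of which 17.2% was balanced. *cyp26c1* breaks down retinoic acid and was called for L at 94.1, 89.0 and 96.1 CPM from L and 34.3, 36.5 and 49.7 CPM from S (1.23 ± 0.26). It was not called when the subgenomes were scaled to the same typical level. *cyp20a1* and *cyp27c1* stood at 7.92 ± 1.35 and -7.83 ± 1.03. Heat shock proteins and chaperones had 9 calls for L and 11 for S of 50 pairs (8 and 17 with scaled subgenomes), and 23 (46.0%) were balanced. Of its 26 pairs in the highest bin of level 12 (46.2%) were balanced, against 49.6% of all pairs there. *dnajb1* had 14.6, 12.45 and 21.2 CPM from L and no S read, and *dnajc10* of the endoplasmic reticulum favoured S (-4.70 ± 0.10).

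Ratios repeated between pools for most pairs but not for all. Among 8121 pairs with at least 20 counts in every library, the median range of the log2 ratio over the 3 libraries was 0.51. It was above 1 in 1736 pairs (21.4%) and above 2 in 431 (5.31%). In those 431 the library farthest from the others was replicate 1 in 103, replicate 2 in 127 and replicate 3, the shallowest, in 201. *hspa8*, a constitutive Hsp70 chaperone, had a steady S copy at 5142, 5536 and 5924 CPM and an L copy at 1482, 435 and 1828 CPM, lowest in replicate 2. Its log2 ratio was -2.39 ± 1.11 and it was called for S. In *ralgapb*, a RalGAP subunit, the L copy was steady at 79.4, 80.7 and 87.6 CPM while the S copy gave 16, 64 and 0 counts. *foxm1*, a cell cycle transcription factor, had 17, 18 and 0 counts from L against 1000, 772 and 748 from S, so the range of its ratio rests on replicate 3. The widest ranges otherwise belonged to *oxct1*, *tatdn2* and *adprhl2*, each with 0 counts of a copy in at least 1 library.

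In 17 pairs the copies lay more than 2-fold apart on opposite sides in different libraries, and none of the 17 was called. *agap2* gave 89, 94 and 68 counts from L and 64, 34 and 298 from S in replicates 1, 2 and 3, so S was the higher copy in replicate 3 alone. *brap* gave 150, 125 and 16 counts from L and 71, 21 and 48 from S, again with S higher in replicate 3 alone. *cdk14* gave 22, 3 and 58 counts from L and 83, 40 and 24 from S, with L higher only in replicate 3. Among them were also *nefl*, a neurofilament gene, and *bmp7.2*, a BMP ligand.

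**Figure D5:**
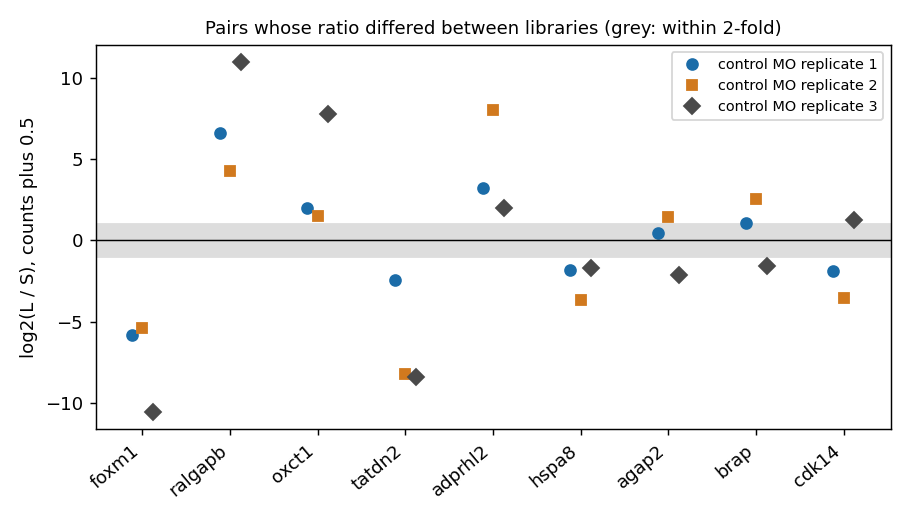
Log2 ratio of L to S counts (y axis) in each control MO library for the 5 pairs with the widest range, for *hspa8* and for 3 pairs whose copies changed sides, with the range within 2-fold in grey. *agap2*, *brap* and *cdk14* have replicate 3 on the other side of 0 from replicates 1 and 2.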

How the data were processed

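RNA-seq was carried out on polyA RNA of the 3 pools of control MO-injected embryos. According to the labels and methods, reads were aligned to *X. laevis* genome 9.2 with STAR 2.5.4b, allowing up to 2 mismatches, and counted per JGI gene model with featureCounts 1.5.1 at default settings, by which reads with several matching places or genes were not counted and strand was not used. The deposited values are raw counts per gene, which the authors did not normalize in these files. Homeologs are near-identical in places, and reads that fell on several overlapping or antisense genes were not counted, so low counts of a copy are uncertain.

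CPM used each library's total. Pairs were tested on a matrix of 6 columns (L and S counts of each library) with edgeR 4.0.16 (quasi-likelihood, R 4.3.3), with library and copy as terms and library totals as offsets. Benjamini-Hochberg adjustment ran over all 8525 pairs. The block follows from the design, since L and S come from the same library. Their deviations from the copy means correlated at 0.304 to 0.356 within a library and at -0.229 to -0.0769 between libraries. Deviations from a copy's own mean cancel over the 3 libraries, so the negative values follow in part from the positive ones. Ratios are given as the mean ± SD of 3 per-library log2 values with 0.5 added to each count. The test was tried on simulated counts. DESeq2 1.42.0, limma 3.58.1 and other settings were alternatives. Figures used matplotlib 3.10.9.

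Named pairs were, among pairs with a symbol, the 5 near-silent copies of each subgenome with the highest partners, the 5 largest called ratios in each direction with at least 10 counts of each copy in every library, the 5 highest balanced pairs, the highest called, lowest called and most expressed pair of each list, and the 5 widest ranges over libraries. Other pairs were named after their values were seen, for their role in a list. The pairs and lists were chosen with earlier results of these data known, and lists were matched by name patterns, which also take in a few genes of similar name. P-values measure the spread between these pools only. Libraries of *neil2* MO-injected embryos were left out. A few pairs that the naming rule picked are not reported here.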

Additional observations from a re-analysis of the deposited data

How the results depend on the processing

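No called pair of those picked by the naming rule changed direction, and the counts of all pairs favoured L under each alternative run. With scaled subgenomes 6 of the 126 pairs picked by the naming rule changed sign, none of them called. They were *cirbp* (log2 ratio -0.26), *mrps18b* (-0.14), *psmc5* (-0.31), *notch1* (-0.02), *col2a1* (-0.14) and *cs* (-0.11). Other pairs given in the text were outside this count, although the shift of 0.36 applies to them too. Without the pairing of L and S by library (no block) 3039 pairs were called for L and 1615 for S. DESeq2 called 2996 and 1592, limma 3046 and 1630, and a test against 2-fold (glmTreat) 2597 and 1327. Without the requirement of 2-fold 2487 pairs were called for S. The median log2 ratio was 0.40 with a summed mean count of at least 1, 0.32 with at least 10 counts in each copy and 0.37 with 1 CPM added. Balanced pairs numbered 1509 within 1.5-fold and 4435 within 3-fold. Near-silent S copies numbered 378 under 2% of the pair, and near-silent L copies 172. With at most 3 counts in every library as the limit, in place of a share of the pair, 390 S copies met it. Leaving out each library in turn gave 3001 to 3061 calls for L, 1587 to 1622 for S, medians of 0.41 to 0.42, 3134 to 3330 balanced pairs, 631 to 650 near-silent S and 273 to 289 near-silent L copies. Of the 126 pairs picked by the naming rule 98 were called, and 3 lost the call somewhere. These were *taf15* (log2 ratio -0.96 without replicate 1 and -0.98 without replicate 2), *cyp26c1* (0.87 with scaled subgenomes) and *oxct1* (DESeq2 adjusted p = 0.0882). In the other direction, *hoxb3* (-1.09 with scaled subgenomes) and *mcm7* (1.07 without replicate 2) met both limits of a call there. Pairs named outside that rule were not counted, and of these *col1a2* and *pkm* were not called with scaled subgenomes. Setting copies without reads to the floor moved no list median, but such pairs stay far from 0 on the same side, so a median could hardly move. A correction for the length of L and S proteins was not run, because sequences were not used here. Depth limits what can be said of copies near 0, where 3 counts equal 0.145 to 0.260 CPM.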

Other observations

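Many of the names listed with a single copy were also expressed. Of the 5982 names with an L copy alone, 3422 passed the same minimum of 20 counts, at a median of 13.7 CPM, and of the 1875 with an S copy alone 974 did, at a median of 14.2 CPM. Within the kept pairs the median was 17.4 CPM for L copies and 12.46 CPM for S copies. Of the names with an L copy alone 16.3% had no read in any library, and of those with an S copy alone 20.7%. These values were not tested against each other.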
